A study of Homo sapiens with 15 samples.

Results

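Short hairpin and microRNA processing was examined through 6 genes, DROSHA, DGCR8, XPO5, DICER1, TARBP2 and AGO2, which were taken from the expression table by their symbols. All 6 were found, each as a single entry, among 57905 listed genes, and all 6 were among the 17214 genes that passed a low-value filter. RNA sequencing was done on SW480, a human colorectal cancer line described as intestinal epithelial, in 4 groups of 3 libraries. The PINT shRNA1+LPS libraries came from cells with a stable lentiviral short hairpin against the long non-coding RNA PINT and 1 µg/ml lipopolysaccharide (LPS) for 4 h, and the PINT shRNA1 libraries from hairpin cells without LPS. The LPS libraries came from wild-type cells given the same LPS, and the Control libraries from wild-type cells given PBS for 4 h. No group with a non-targeting hairpin is labelled, so the targeted sequence, the presence of any hairpin and the lentiviral vector cannot be told apart.

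In the canonical pathway the nuclease DROSHA and its RNA-binding partner DGCR8, together the Microprocessor, cut hairpins out of primary microRNA transcripts in the nucleus. Exportin-5, the product of XPO5, carries the resulting hairpins to the cytoplasm, where DICER1 removes the loop with the help of the double-stranded RNA binding protein TARBP2. The duplex is loaded into Argonaute proteins, of which AGO2 cleaves matching RNA. A simple vector-encoded short hairpin enters at the export step, whereas a hairpin embedded in a microRNA backbone also needs the Microprocessor, and the labels do not say which design was used.

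Expression was given as FPKM, fragments per unit of transcript length and of sequencing depth, a scale on which genes can be compared per length but which carries no counting error. Depth relative to the first Control library, read from the steps of low values, was 1.3 to 1.51 in PINT shRNA1+LPS, 0.914 to 1.05 in PINT shRNA1, 0.848 to 0.858 in LPS and 0.809 to 1 in Control. LINC-PINT, the targeted gene, went against the labels: it averaged 3.87 ± 0.289 FPKM in PINT shRNA1+LPS and 5.05 ± 0.436 FPKM in PINT shRNA1, against 2.38 ± 0.457 FPKM in LPS and 2.65 ± 0.202 FPKM in Control (SD, n = 3 each). Its lowest library labelled with the hairpin, at 3.54 FPKM, lay above the highest of the others, at 2.88 FPKM. Groups are therefore named only by their labels, as libraries labelled PINT shRNA1. Of 7 intestinal epithelial markers, 6 averaged at least 1 FPKM in every group, and their summed level was 1287 to 1353 FPKM in PINT shRNA1+LPS and 1230 to 1310 FPKM in PINT shRNA1, against 2032 to 2078 FPKM in LPS and 2058 to 2363 FPKM in Control. The sum is mostly KRT8, KRT18 and EPCAM, which were called lower by hairpin label, as was VIL1. CDX2 was called higher, at 13.7 ± 0.462 FPKM in PINT shRNA1+LPS and 13.4 ± 1.46 FPKM in PINT shRNA1, against 8.78 ± 0.421 FPKM in LPS and 10.2 ± 1.36 FPKM in Control (SD, n = 3 each). CDH1 was not called, and KRT20 was at most 0.151 FPKM. Summed leukocyte markers reached at most 4.93 FPKM in any library, fibroblast markers 1.37 FPKM and endothelial markers 0.322 FPKM. Genes above 0 numbered 30950 to 31961 in PINT shRNA1+LPS and 30725 to 31159 in PINT shRNA1, against 27078 to 27425 in LPS and 27536 to 28430 in Control. Mitochondrial transcripts held 23.5 to 24.8% of FPKM in PINT shRNA1+LPS and 22.9 to 23.7% in PINT shRNA1, against 24.7 to 25.3% in LPS and 24.8 to 25.9% in Control. The part of depth, of the genes detected, of the mitochondrial share and of the epithelial markers in the differences below was not tested. In bulk RNA, fewer cells with a transcript and less of it per cell cannot be told apart.

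All 6 genes were expressed above the median of the tested genes. Over all 12 libraries XPO5 averaged 29.4 FPKM, DICER1 24.5 FPKM and DROSHA 19.3 FPKM, which placed them at the 86.9th, 83.8th and 79.4th percentile of the tested genes. AGO2 averaged 11.5 FPKM, DGCR8 10.97 FPKM and TARBP2 9.98 FPKM, at the 67.8th, 66.4th and 63.8th percentile. The nuclease of each pair was thus listed above its RNA-binding partner, DROSHA above DGCR8 and DICER1 above TARBP2, in each of the 12 libraries. From the lowest to the highest library, DROSHA varied 1.68-fold, XPO5 1.40-fold, TARBP2 1.38-fold, DGCR8 1.24-fold, DICER1 1.20-fold and AGO2 1.19-fold. XPO5 led in mean level in all 4 groups, but its range overlapped that of DICER1 in LPS and Control and not in PINT shRNA1+LPS or PINT shRNA1. The ranges of DICER1 and DROSHA overlapped in PINT shRNA1+LPS and PINT shRNA1 and not in LPS or Control. AGO2 and DGCR8 overlapped in every group but LPS, and DGCR8 and TARBP2 overlapped in PINT shRNA1+LPS and Control only.

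**Figure D1:**
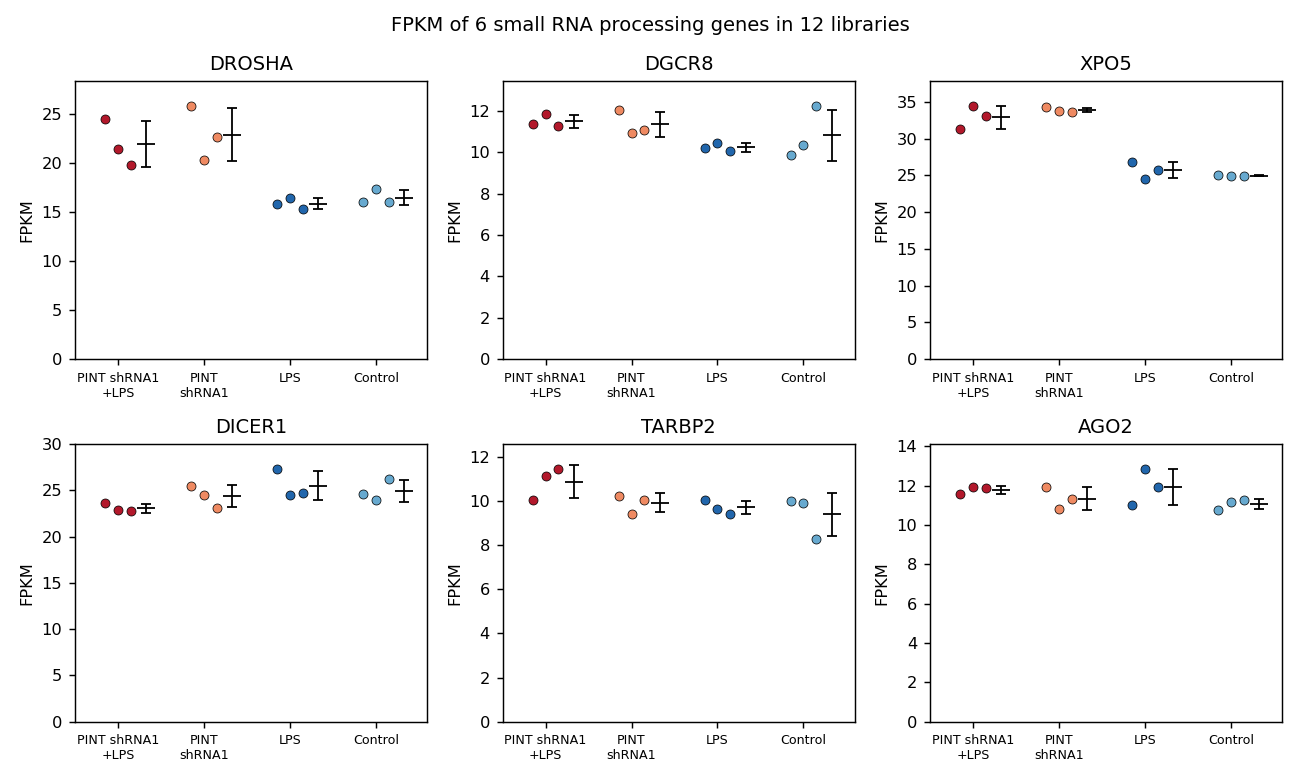
FPKM of the 6 genes in each library, by group, with the group mean and SD (n = 3) beside the points. DROSHA and XPO5 sit higher in all 6 libraries labelled with the hairpin than in the other 6, while the points of the other 4 genes overlap across the 12 libraries.

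DROSHA, the Microprocessor nuclease, was higher in the libraries labelled PINT shRNA1 with and without LPS. It stood at 24.5, 21.5 and 19.9 FPKM in PINT shRNA1+LPS and at 25.8, 20.4 and 22.7 FPKM in PINT shRNA1. In LPS it stood at 15.8, 16.5 and 15.3 FPKM, and in Control at 16.1, 17.4 and 16.1 FPKM. The lowest library labelled with the hairpin, at 19.9 FPKM, lay above the highest of the others, at 17.4 FPKM, and the spread was wider among libraries labelled with the hairpin, with an SD of 2.35 FPKM in PINT shRNA1+LPS and 2.75 FPKM in PINT shRNA1, against 0.582 FPKM in LPS and 0.753 FPKM in Control. DROSHA rose by 0.45 ± 0.0914 (log2 fold change ± SE) in PINT shRNA1+LPS against LPS (limma, adjusted p = 0.00405) and by 0.46 ± 0.0914 without LPS, in PINT shRNA1 set against Control (limma, adjusted p = 0.00407). Over both LPS states the difference averaged 0.45 on the log2 scale, a 1.37-fold higher level with a 95% interval of 0.31 to 0.60 (log2), and 85.2% of the tested genes had a smaller one. The promoter of DROSHA is shown because another gene, which was not called, starts beside it, as described further on. It is the 250 bases before the start of DROSHA in RefSeq (GRCh38.p14, chr5:31532094-31532343, minus strand, printed in the direction of transcription), with capitals at each CCAAT box, read as CCAAT on either strand.
DROSHA promoter: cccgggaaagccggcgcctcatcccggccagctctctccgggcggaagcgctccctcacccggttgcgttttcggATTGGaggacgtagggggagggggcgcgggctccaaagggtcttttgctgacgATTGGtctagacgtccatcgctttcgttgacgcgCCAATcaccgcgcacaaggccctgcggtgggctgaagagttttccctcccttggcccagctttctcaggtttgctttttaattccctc
The CCAAT box occurred 3 times in it, with no overlap between the matches, and 32% of 35116 RefSeq promoters of that length held at least 1. It was not particular to DROSHA: DGCR8 held 4, 1 of 3 TARBP2 promoters held 3 and another held 1, and DICER1 held 1 in 2 of its 5 promoters, while none of these genes was called. The expression files follow another build, GRCh37/hg19, so these coordinates do not come from them.

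DGCR8, the RNA-binding partner of DROSHA, was measured at 11.3, 11.9 and 11.3 FPKM in PINT shRNA1+LPS, at 12.03, 10.9 and 11.1 FPKM in PINT shRNA1, at 10.2, 10.5 and 10.1 FPKM in LPS and at 9.85, 10.4 and 12.2 FPKM in Control. PINT shRNA1+LPS did not overlap LPS, but PINT shRNA1 overlapped Control, where replicate 3 held the highest value of all 12. The log2 fold change was 0.16 ± 0.0745 in PINT shRNA1+LPS against LPS (limma, adjusted p = 0.136) and 0.07 ± 0.0745 in PINT shRNA1 set against Control (limma, adjusted p = 0.530). DGCR8 was not called. Its average of 0.11 had a 95% interval of -0.0015 to 0.23. Without that Control library the average was 0.16 ± 0.0404 (limma, adjusted p = 0.0112), and the gene was called, as it also was in PINT shRNA1+LPS against LPS, at 0.16 ± 0.0539 (limma, adjusted p = 0.0498). DGCR8 messenger RNA is itself a known substrate of the Microprocessor, which cuts hairpins within it. The pair of mature microRNAs of the hairpin inside its coding sequence is shown for that reason, as RefSeq lists them on GRCh38.p14, plus strand, with the seed (bases 2 to 8) in capitals.
hsa-miR-1306-5p, chr22:20086072-20086093: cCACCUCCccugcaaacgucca
hsa-miR-1306-3p, chr22:20086112-20086129: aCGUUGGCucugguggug
The arms have different seeds. TRMT2A, a transfer RNA methyltransferase that overlaps DGCR8 on the opposite strand, was not called (average 0.03 ± 0.118, limma, adjusted p = 0.874). Neither microRNA was measured here, since FPKM was given per gene, and the cutting of the DGCR8 transcript was not tested.

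XPO5, which encodes the export receptor for hairpins, was higher in the same libraries as DROSHA. Its SD was smaller than that of DROSHA in every group but LPS, where it was 1.11 FPKM against 0.582 FPKM. It stood at 31.3, 34.4 and 33.1 FPKM in PINT shRNA1+LPS and at 34.2, 33.8 and 33.6 FPKM in PINT shRNA1. In LPS it stood at 26.8, 24.6 and 25.7 FPKM, and in Control at 25.1, 24.95 and 24.9 FPKM. All 6 libraries labelled with the hairpin lay above all 6 others, with a gap between 31.3 and 26.8 FPKM. XPO5 rose by 0.35 ± 0.0456 (log2) in PINT shRNA1+LPS against LPS (limma, adjusted p = 0.000269) and by 0.43 ± 0.0456 in PINT shRNA1 against Control (limma, adjusted p = 7.61e-05). The average was 0.39 on the log2 scale, a 1.31-fold higher level with a 95% interval of 0.32 to 0.46 (log2), and 80.3% of the tested genes had a smaller one. The 250 bases before the start of XPO5 are shown for comparison with the DROSHA promoter (RefSeq, GRCh38.p14, chr6:43576039-43576288, minus strand, printed in the direction of transcription), with capitals at an NRF1-type motif, which reads GCGC, any base and TGCGC on either strand.
XPO5 promoter: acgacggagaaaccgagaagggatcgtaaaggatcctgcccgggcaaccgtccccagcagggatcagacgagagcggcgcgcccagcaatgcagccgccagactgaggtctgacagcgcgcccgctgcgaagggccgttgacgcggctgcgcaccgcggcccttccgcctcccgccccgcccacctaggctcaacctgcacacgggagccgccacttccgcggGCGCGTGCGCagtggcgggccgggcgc
The motif occurred 1 time in XPO5, in none of the searched promoters of DROSHA, DGCR8, DICER1 and TARBP2, and in 5.07% of the 35116 RefSeq promoters. AGO2 had no promoter among those searched. XPO5 held no CCAAT box, so the genes that rose did not share either of these motifs. The GC box GGGCGG occurred in both, at 1 place in DROSHA and 2 in XPO5, and in 42.6% of all the promoters. It was not particular to them: DGCR8 held 2, and promoters of DICER1 and TARBP2 held it too, while none of these genes was called. An NF-kB-type motif, which reads GGGA, any base and TTTCC, was found in none of the searched promoters and in 0.527% of all of them.

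DROSHA and XPO5 each lie head to head with another gene in GENCODE 29 (GRCh38), with 69 bases between DROSHA and C5orf22 and 74 bases between XPO5 and POLH, and these neighbours were looked up after the values of DROSHA and XPO5 had been seen. C5orf22 averaged 8.87 ± 0.309 FPKM in PINT shRNA1+LPS, 9.43 ± 0.744 FPKM in PINT shRNA1, 8.83 ± 1.92 FPKM in LPS and 9.27 ± 0.0713 FPKM in Control (SD, n = 3 each). POLH, a translesion DNA polymerase, averaged 3.09 ± 0.429 FPKM, 4.02 ± 0.755 FPKM, 3.46 ± 0.302 FPKM and 4.00 ± 0.853 FPKM in the same groups in that order. Neither was called: the average log2 fold change was 0.02 ± 0.0862 for C5orf22 (limma, adjusted p = 0.854) with a 95% interval of -0.17 to 0.21, and -0.07 ± 0.117 for POLH (limma, adjusted p = 0.669) with an interval of -0.33 to 0.19. The interval of C5orf22 lies below that of DROSHA, which starts at 0.31, and the interval of POLH below that of XPO5, which starts at 0.32. The difference between the genes of a pair was not itself tested. TARBP2 also lies head to head with a gene, MAP3K12, at 857 bases, which was not called. Other neighbours were called by hairpin label: RANBP1 beside DGCR8 averaged 0.16 and RP11-793H13.10 beside TARBP2 0.38. CHRAC1 beside AGO2 averaged -0.70 and CLMN beside DICER1 -0.63. The call of RP11-793H13.10 was lost in 9 of 23 alternatives. Outside the hairpin label RP11-793H13.10 reached 0.5 FPKM only in the third Control and the first LPS library. It thus passed the low-value filter through the libraries where it was high, and its call is no separate support. CLMN was also low, at 0.603 FPKM in PINT shRNA1+LPS, 0.843 FPKM in PINT shRNA1, 1.27 FPKM in LPS and 1.57 FPKM in Control on average. TANGO2 beside DGCR8, YIPF3 beside XPO5 and PTK2 beside AGO2 were not called. POLR1C, a subunit of RNA polymerases I and III, overlaps XPO5 on the opposite strand and averaged 18.2 FPKM over the 12 libraries. Its average log2 fold change was 0.15 ± 0.0632 (limma, adjusted p = 0.0809). It was called when libraries were rescaled to a common total (limma, adjusted p = 0.0434), and without the second PINT shRNA1, the third LPS or the third Control library (limma, adjusted p = 0.0244, 0.0477 and 0.0423). SCARNA15, a small Cajal body RNA that also lies opposite XPO5, was not called (average 0.24 ± 0.312, limma, adjusted p = 0.565). Whether reads were assigned by strand is not given in the sources used here, so reads that the overlapping genes share cannot be told apart.

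**Figure D2:**
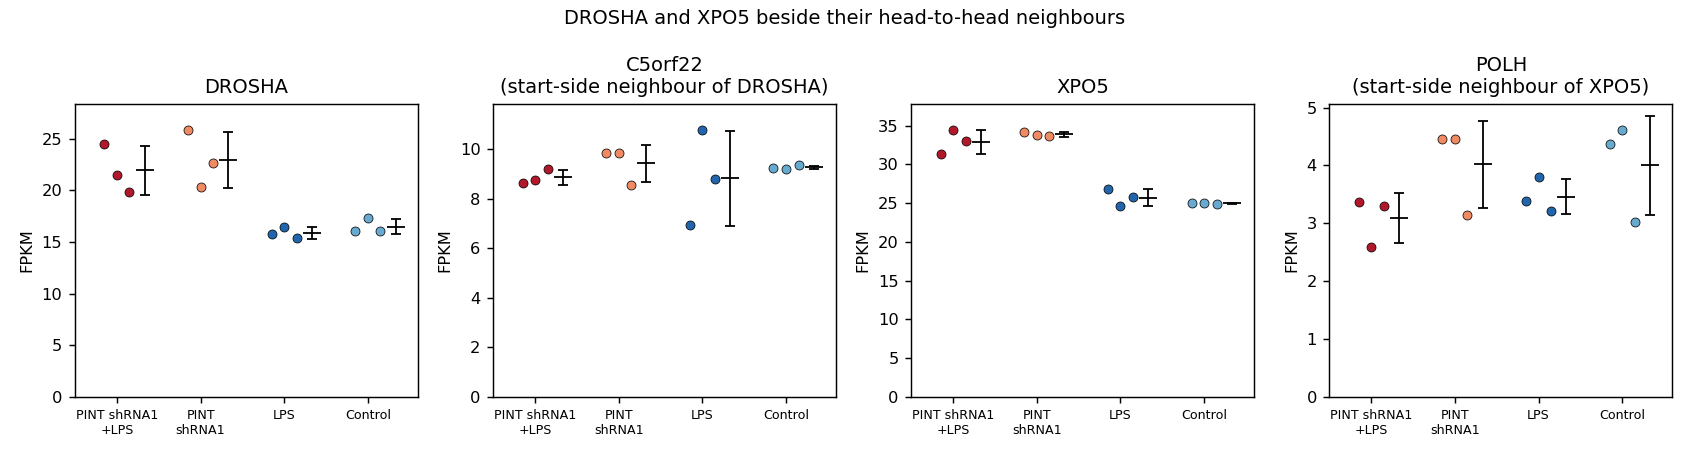
FPKM in each library of DROSHA and XPO5 and of the genes that start beside them on the opposite strand, C5orf22 and POLH, with group means and SD (n = 3). DROSHA and XPO5 separate by hairpin label, while libraries with and without that label overlap for C5orf22 and POLH.

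DICER1, the nuclease that cuts hairpins to duplexes, did not follow DROSHA and XPO5. It was listed at 23.6, 22.9 and 22.7 FPKM in PINT shRNA1+LPS, at 25.5, 24.5 and 23.1 FPKM in PINT shRNA1, at 27.3, 24.5 and 24.7 FPKM in LPS and at 24.5, 23.9 and 26.2 FPKM in Control. PINT shRNA1+LPS lay below LPS with no overlap, while PINT shRNA1 overlapped Control. The log2 fold change was -0.14 ± 0.0573 in PINT shRNA1+LPS against LPS (limma, adjusted p = 0.0920) and -0.03 ± 0.0573 in PINT shRNA1 against Control (limma, adjusted p = 0.724), so DICER1 was not called. The average of -0.09 had a 95% interval of -0.18 to 0.0034. With libraries scaled to a common median the average was -0.14 ± 0.0433 (limma, adjusted p = 0.0253), and with quantile normalization -0.12 ± 0.0407 (limma, adjusted p = 0.0363), which passed the threshold. DICER1-AS1, which is antisense to DICER1, was at 0.974 ± 0.169 FPKM in PINT shRNA1+LPS, 1.25 ± 0.127 FPKM in PINT shRNA1, 0.881 ± 0.126 FPKM in LPS and 1.18 ± 0.143 FPKM in Control (SD, n = 3 each), and was not called (average 0.08 ± 0.0869, limma, adjusted p = 0.508).

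TARBP2, the partner that DICER1 uses to bind and place its substrate, was the least abundant of the 6. It was listed at 10.0, 11.1 and 11.5 FPKM in PINT shRNA1+LPS, at 10.2, 9.44 and 10.1 FPKM in PINT shRNA1, at 10.0, 9.66 and 9.43 FPKM in LPS and at 10.0, 9.93 and 8.28 FPKM in Control. Groups overlapped in every comparison, and the lowest value came from the third Control library. The log2 fold change was 0.15 ± 0.0790 in PINT shRNA1+LPS against LPS (limma, adjusted p = 0.174) and 0.08 ± 0.0790 in PINT shRNA1 against Control (limma, adjusted p = 0.517). The average of 0.11 had a 95% interval of -0.0083 to 0.24. RP11-793H13.11, antisense to TARBP2, was not called (average 0.22 ± 0.0998, limma, adjusted p = 0.104), except without the second LPS library (limma, adjusted p = 0.0186). AGO2, the cleaving Argonaute, was the steadiest of the 6. It was listed at 11.6, 11.9 and 11.9 FPKM in PINT shRNA1+LPS, at 11.9, 10.8 and 11.3 FPKM in PINT shRNA1, at 11.03, 12.9 and 11.9 FPKM in LPS and at 10.8, 11.2 and 11.3 FPKM in Control. Its groups overlapped in each of these comparisons, and the average log2 fold change was 0.0097 ± 0.0436 (limma, adjusted p = 0.881), with a 95% interval of -0.087 to 0.11.

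The share of the processing genes called in either direction lay near, or under, that of all genes. The share called higher, which rests on 2 genes, lay above the matching share of all genes. In PINT shRNA1+LPS against LPS, 2 of the 6 were called, DROSHA and XPO5, both higher. There, 29.2% of all tested genes were called and 17.7% were called higher. In PINT shRNA1 against Control the same 2 genes were called higher, beside 27.3% of all genes called and 16.9% called higher. These comparisons use different libraries. On the average over both LPS states, 2 of 6 (33.3%) were called beside 42.0% of all genes. Of all genes, 26.1% were called higher and 15.9% lower, a share of higher calls of 62.2% that was 51.2% with libraries scaled to a common median. The median log2 fold change of the 6 was 0.11, beside 0.06 for all tested genes. In PINT shRNA1+LPS against LPS the groups did not overlap for 3 genes that were higher, DROSHA, XPO5 and DGCR8, beside 27.7% of all genes, and for 1 gene that was lower, DICER1, beside 18.1%. In PINT shRNA1 against Control they did not overlap for DROSHA and XPO5, both higher, beside 25.6% of all genes. All 6 libraries labelled with the hairpin lay above all 6 others for DROSHA and XPO5, as they did for 13.9% of all genes.

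An exact two-sided permutation test was run on each gene, with the hairpin label permuted within each LPS state over 400 assignments. This exact permutation test gave p = 0.005 for DROSHA and for XPO5, which is the smallest p this design allows. Any gene whose libraries labelled with the hairpin all lie above the others gets this p, and 13.9% of all genes lay so. So does any gene whose libraries all lie below, or that separates in the same direction within each LPS state. The share of all genes at this p is therefore above 13.9%. For DROSHA and XPO5 the p says no more than their separation. The same exact permutation test gave 0.055 for DGCR8, 0.045 for DICER1, 0.065 for TARBP2 and 0.81 for AGO2. It is not adjusted for the number of genes, and the p of DICER1 is the one that lies on the other side of the threshold from the limma call. Leaving out single libraries moved it to between 0.02 and 0.16.

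**Figure D3:**
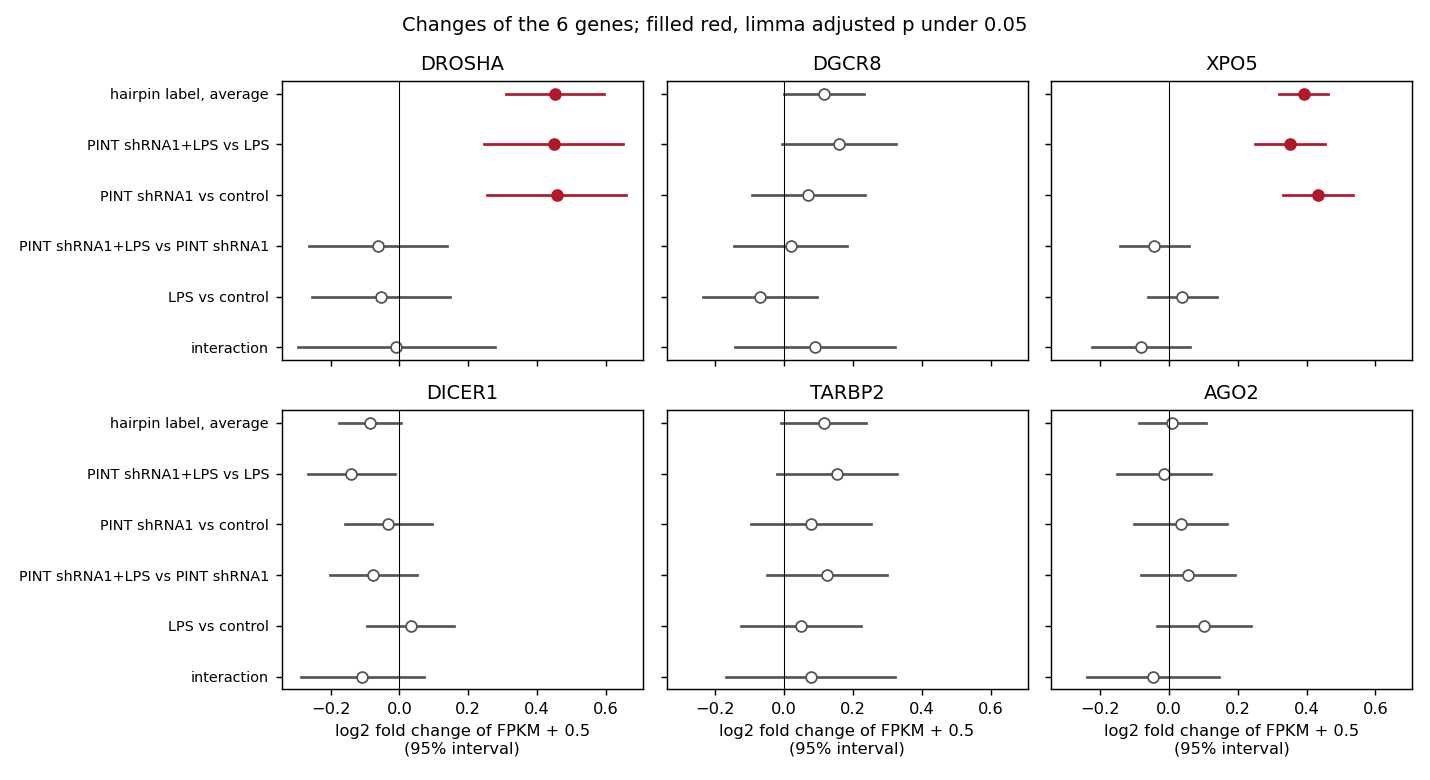
Log2 fold change of FPKM + 0.5 with its 95% interval for each of the 6 genes in 6 comparisons, in red where the limma adjusted p was under 0.05. Red appears for DROSHA and XPO5 in the comparisons by hairpin label and nowhere in the LPS comparisons or the interaction.

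LPS was the other factor of the design, and none of the 6 genes passed the test for it. In PINT shRNA1+LPS against PINT shRNA1, 0 of 6 were called with limma, beside 0.186% of all genes. None of the 6 had an unadjusted limma p under 0.05, beside 1508 of the 17214 tested genes. The log2 fold changes ran between -0.08 ± 0.0573 for DICER1 and 0.13 ± 0.0790 for TARBP2, with adjusted p between 0.708 and 0.966. In LPS against Control, 0 of 6 were called with limma beside 2.76% of all genes. Again none had an unadjusted limma p under 0.05, beside 2896 of the 17214 tested genes. The log2 fold changes ran between -0.07 ± 0.0745 for DGCR8 and 0.10 ± 0.0617 for AGO2, with limma adjusted p between 0.448 and 0.823. All 6 genes overlapped between the groups in either comparison, where 19.3% of all genes did not overlap in PINT shRNA1+LPS against PINT shRNA1 and 19.2% in LPS against Control. The 95% intervals in LPS against Control reached no further than -0.25 for DROSHA on the low side and 0.24 for AGO2 on the high side. The interaction is the LPS difference under the hairpin label minus that without it. It was called for 0 of 6 genes with limma beside 0.128% of all genes. None of the 6 had an unadjusted limma p under 0.05, beside 1333 of the 17214 tested genes. With only 6 genes, counts of 0 beside such numbers say little. The interaction ran between -0.11 ± 0.0810 for DICER1 and 0.09 ± 0.105 for DGCR8. For XPO5 it was -0.08 with a 95% interval of -0.22 to 0.06.

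The balance between partners was expressed as ratios of FPKM within a library, a measure chosen after the values had been seen. DROSHA/DGCR8 was 1.91 ± 0.216 in PINT shRNA1+LPS and 2.02 ± 0.145 in PINT shRNA1, against 1.55 ± 0.0264 in LPS and 1.54 ± 0.198 in Control (SD, n = 3 each). All 6 libraries labelled with the hairpin, at 1.76 or more, lay above the others, which reached 1.68. XPO5/DICER1 was 1.43 ± 0.0931 in PINT shRNA1+LPS and 1.39 ± 0.0581 in PINT shRNA1, against 1.01 ± 0.031 in LPS and 1.00 ± 0.0488 in Control (SD, n = 3 each). DROSHA/XPO5 was 0.669 ± 0.0989 in PINT shRNA1+LPS and 0.677 ± 0.0763 in PINT shRNA1, against 0.620 ± 0.0455 in LPS and 0.661 ± 0.0308 in Control, and here the groups overlapped. The mean log2 difference by hairpin label was 0.35 for DROSHA/DGCR8, 0.49 for XPO5/DICER1 and 0.07 for DROSHA/XPO5. A two-sided exact permutation test within LPS state gave p = 0.005, 0.005 and 0.45 for the 3 ratios, and 0.0075, 0.0075 and 0.45 after Benjamini-Hochberg adjustment over them. These p-values describe ratios picked with the result in view, and DROSHA and XPO5 already separated by hairpin label on their own.

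**Figure D4:**
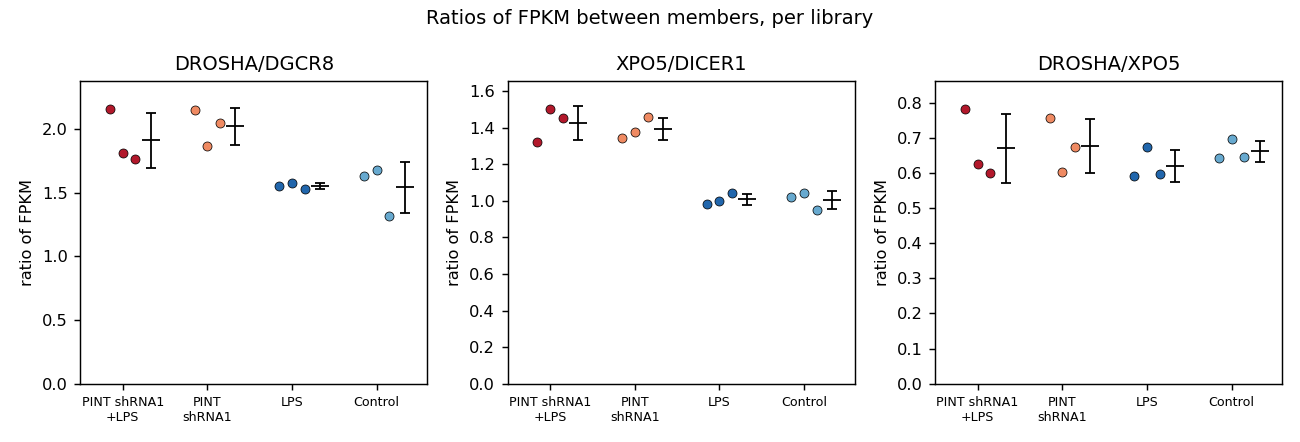
Ratio of FPKM between genes in each library, by group, with the mean and SD (n = 3). DROSHA/DGCR8 and XPO5/DICER1 are higher in all 6 libraries labelled with the hairpin, and DROSHA/XPO5 overlaps between groups.

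The rest of the pathway was read through 7 lists with 79 tested genes, none of them among the 6. In PINT shRNA1+LPS against LPS 18 were higher and 12 lower (38.0%, beside 29.2% of all genes), and in PINT shRNA1 against Control 22 were higher and 8 lower (38.0%, beside 27.3%). On the average over both LPS states 27 were higher and 15 lower (53.2%, beside 42.0%), with a median log2 fold change of 0.02. Among 15 Microprocessor cofactors and primary transcript binding proteins, 8 rose and 1 fell (60.0% called, beside 42.0% of all genes). SRRT, also known as ARS2, which links the nuclear cap-binding complex to microRNA processing, averaged 77.1 ± 0.874 FPKM in PINT shRNA1+LPS and 72.7 ± 1.153 FPKM in PINT shRNA1, against 51.5 ± 2.30 FPKM in LPS and 49.2 ± 2.43 FPKM in Control (SD, n = 3 each). It rose by 0.57 ± 0.0317 (limma, adjusted p = 2.66e-07). METTL3, the methyltransferase that marks primary microRNA transcripts, rose by 0.37 ± 0.0389 (limma, adjusted p = 2.64e-05). SAFB2 and SAFB, scaffold attachment factors that assist the Microprocessor, rose by 0.38 and 0.27 (limma, adjusted p = 1.35e-05 and 6.69e-06).

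Further along the pathway, most lists held genes called in both directions. Of 7 nuclear export genes besides XPO5, 3 rose and 3 fell (85.7% called, beside 42.0% of all genes, with 26.1% higher and 15.9% lower). RCC1, the exchange factor that loads Ran with GTP, averaged 40.5 ± 2.76 FPKM in PINT shRNA1+LPS and 46.9 ± 11.003 FPKM in PINT shRNA1, against 24.3 ± 5.27 FPKM in LPS and 24.4 ± 3.601 FPKM in Control (SD, n = 3 each), and rose by 0.83 ± 0.134 (limma, adjusted p = 0.000566). RANBP1, a Ran-binding protein, rose by 0.16 (limma, adjusted p = 0.00202), RAN itself fell by 0.16 (limma, adjusted p = 0.00225) and XPOT, the exportin for transfer RNA, fell by 0.29 (limma, adjusted p = 4.63e-05). Among 10 Dicer partners, loading chaperones and strand-removal genes, 3 rose and 1 fell (40.0% called), with HSP90AA1, a chaperone of Argonaute loading, at 0.19 (limma, adjusted p = 0.00013) and TSN, a subunit of the passenger-strand nuclease, at -0.17 (limma, adjusted p = 0.00692). HSP90AB1 and STIP1, further loading chaperones, were the other genes of this list that rose, both by 0.08 (limma, adjusted p = 0.00447 and 0.0179). They were not called with a common median, where they stood at 0.03 and 0.03, or without the intensity trend. Of the other 3 Argonautes, 2 fell (66.7% called, beside 42.0% of all genes). AGO4 fell by 0.47 ± 0.0844 (limma, adjusted p = 0.00112) and AGO1 by 0.13 ± 0.0364 (limma, adjusted p = 0.0133). AGO3 was at -0.14 ± 0.0805 (limma, adjusted p = 0.181). AGO4 averaged 2.19 ± 0.160 FPKM in PINT shRNA1+LPS and 2.45 ± 0.330 FPKM in PINT shRNA1, against 3.44 ± 0.519 FPKM in LPS and 3.38 ± 0.375 FPKM in Control (SD, n = 3 each), well under AGO2 in every group.

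Of 20 silencing effectors, 5 rose and 3 fell (40.0% called, near the 42.0% of all genes), with a median of 0.0050 on the log2 scale. PAN2, a deadenylase subunit, rose by 0.40 (limma, adjusted p = 4.5e-05) and DCP1A, a decapping cofactor, by 0.29 (limma, adjusted p = 0.0018). TNRC6B, a GW182 scaffold that Argonautes bind, fell by 0.47 (limma, adjusted p = 0.00211) and the exonuclease XRN1 by 0.30 (limma, adjusted p = 0.000211). Of 10 genes of small RNA tailing and decay, 8 were tested, of which 3 rose and 1 fell (50% called, beside 42.0% of all genes). PARN, a poly(A) ribonuclease, rose by 0.24 (limma, adjusted p = 0.00411), XRN2, a nuclear exonuclease, by 0.14 (limma, adjusted p = 0.000931), and PAPD4, a nucleotidyltransferase, fell by 0.19 (limma, adjusted p = 0.00562). DIS3L2, an exonuclease for uridylated precursors, rose by 0.21 (limma, adjusted p = 0.0349), a call that was lost when any of 7 single libraries was left out: the second or the third of PINT shRNA1+LPS, the third of PINT shRNA1, the first or the second of LPS, or the second or the third of Control. It was also lost with a common median, with quantile normalization and with no low-value filter. LIN28A and LIN28B, the let-7 binding proteins of this list, did not pass the low-value filter.

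Of 20 listed transcripts that host or neighbour microRNA hairpins, 18 were found and 16 tested, of which 5 rose and 4 fell (56.3% called, beside 42.0% of all genes). MIR210HG, the host of the hypoxia-linked miR-210, averaged 1.94 ± 0.285 FPKM in PINT shRNA1+LPS and 1.72 ± 0.625 FPKM in PINT shRNA1, against 0.410 ± 0.152 FPKM in LPS and 0.423 ± 0.253 FPKM in Control (SD, n = 3 each). Its log2 fold change was 1.35 ± 0.162 and ran from 0.99 to 1.94 over the alternatives. Outside the hairpin label it reached 0.5 FPKM only in the first Control and the third LPS library. MIR210HG thus passed the low-value filter through the libraries where it was high. Its call, which is 1 of the 5 higher calls, is therefore no separate support for a rise. VMP1, which lies beside miR-21, rose by 0.27 (limma, adjusted p = 0.000241), while CTDSP1, a host of miR-26b, fell by 0.29 (limma, adjusted p = 3.83e-05) and MIR4435-1HG fell by 0.22 (limma, adjusted p = 0.00012). FPKM of a host transcript is not a measure of the microRNA made from it. In LPS against Control, 2 of the 79 genes were called (2.53%, beside 2.76% of all genes). They were NUP153, a nucleoporin, at 0.23 ± 0.0349 (limma, adjusted p = 0.00599) and RANGAP1, the GTPase activator of Ran, at 0.24 ± 0.0445 (limma, adjusted p = 0.0171). Neither call held in a fit restricted to these groups (limma, adjusted p = 0.104 and 0.116), and that of RANGAP1 was also lost without the second or the third Control library or the third LPS library, with adjusted p between 0.0527 and 0.0666 (limma). Other genes of the lists were called on LPS in an alternative instead: ILF2, HSP90AB1 and STIP1 with a common median (limma, adjusted p = 0.0440, 0.0164 and 0.00805), CNOT6L without the first LPS library (limma, adjusted p = 0.000408) and TNRC6C without the second PINT shRNA1 library (limma, adjusted p = 0.0441).

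**Figure D5:**
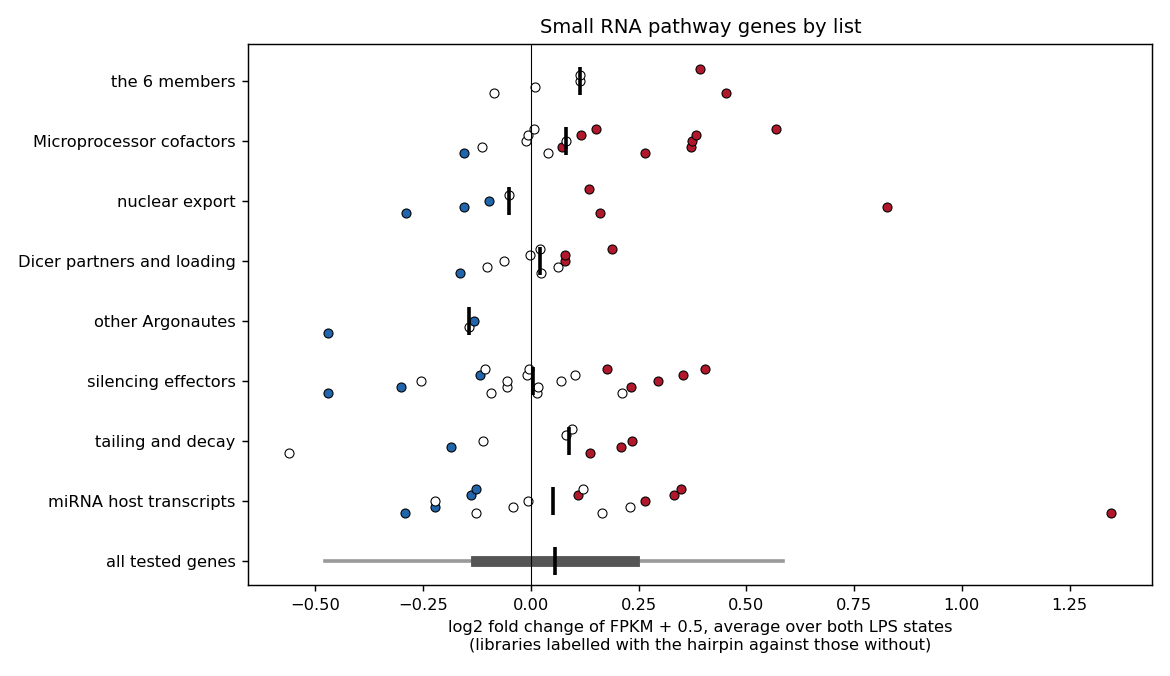
Average log2 fold change of FPKM + 0.5 by hairpin label for each tested gene, by list, with red for genes called higher, blue for genes called lower, open circles for genes not called and a bar at each median. The lowest row gives the median, the middle and the wider spread of all tested genes. The list medians lie between -0.14 and 0.11, beside 0.06 for all genes.

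The genes whose pattern over the 12 libraries was most like each processing gene were taken by Pearson correlation of log2 values, as a description. For DROSHA they were CEP76, ERRFI1 and LAMB1 (r = 0.966, 0.965 and 0.962), and for XPO5 KRT41P, ENG and ERP44 (r = 0.991, 0.986 and 0.984). For DGCR8 they were GDE1, TRIM16L and HOXC8 (r = 0.903, 0.895 and 0.877), and for DICER1 GALC, SENP6 and EIF4BP7 (r = 0.902, 0.886 and 0.881). For TARBP2 they were NUMB, MCCC2 and STOML2 (r = 0.910, 0.901 and 0.890), and for AGO2 UTP14A, DYNLT3 and BCAR3 (r = 0.855, 0.852 and 0.845). Among pairs of the 6 genes, DROSHA and XPO5 were most alike (r = 0.868) and DICER1 and TARBP2 least (r = -0.605). The 12 points share the 4 groups, the libraries and their scaling, so genes that differ by hairpin label correlate through it.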

How the data were processed

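Gene expression was measured by RNA sequencing in 12 libraries of SW480 cells in 4 groups of 3. The values are FPKM per gene as deposited by the authors. Per the submitters' processing notes, the tools were fastp, HISAT2 2.1.0 and StringTie 1.3.4d, and the build was GRCh37/hg19, with no role given for each. The labels list 15 samples, since 3 RNA numbers of PINT shRNA1 have 2 samples each but 1 column each, and do not tie replicates to separate cultures. A p-value here therefore reflects the spread between libraries, which may be technical. Another 6 columns were not used here.

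The filter kept 17214 genes that reached 0.5 FPKM in 3 or more libraries, and their log2(FPKM + 0.5) was fitted with limma 3.58.1 in R 4.3.3, with 1 group-means model of all libraries and an intensity trend, two-sided, with Benjamini-Hochberg adjustment over all genes. Calls were made at an adjusted p under 0.05. Fold changes are on the log2(FPKM + 0.5) scale, which understates those of low genes. Absolute depth is unknown, so the stated precision is the SE of the fit. A repeated symbol was represented by its most abundant entry. Genes named besides the 6 are, per list, up to 4 with the smallest p by hairpin label and up to 2 by LPS (given where called). Also named are the 3 most correlated with each of the 6, with small RNA and genes known by clone name set aside. Overlapping and neighbouring genes are named as well, and NCBP1 because it went against the genes named from its list. The 6 genes and all lists were chosen with earlier results of these data known. The fit was tested on simulated data. Alternatives changed the scaling, pseudocount, filter, moderation, replicate term, libraries fitted, group weights and repeated symbols, and left out each library. Promoters and microRNAs came from RefSeq GRCh38.p14, and gene positions from GENCODE 29.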

Additional observations from a re-analysis of the deposited data

How the results depend on the processing

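DROSHA and XPO5 were called by hairpin label in every alternative run, including each left-out library, and none of the 6 genes was called for LPS or the interaction in any. The average log2 fold change stayed between 0.40 and 0.49 for DROSHA and between 0.34 and 0.41 for XPO5. Of 888 alternative values of the 6 genes, 883 kept their direction if called and their side of the threshold, and the other 5 passed it where the main value did not. These were DGCR8 without the third Control library and DICER1 by scaling, given above with one more, DICER1 in PINT shRNA1+LPS against LPS at -0.20 with a common median. Of 30 values that were not called, 14 changed sign in at least 1 alternative.

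With libraries rescaled to a common total, the exact permutation p was 0.03 for DGCR8, 0.15 for DICER1 and 0.035 for TARBP2. With a common median it moved the other way, to 0.265, 0.025 and 0.22 for the same genes in that order. With single libraries left out the exact permutation p was 0.005 throughout for DROSHA and XPO5. Every library labelled with the hairpin lay above every other for both genes. Leaving a library out keeps that separation, so this p says nothing beyond it. For the other genes the exact permutation p ranged between 0.005 and 0.16 for DGCR8, 0.02 and 0.16 for DICER1, 0.04 and 0.155 for TARBP2 and 0.275 and 1 for AGO2. The cause was not tested.

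Replicate numbers did not pair the libraries: deviations of same-numbered libraries correlated at -0.048 to 0.057, and of others at -0.058 to 0.046. With a replicate block 2 of the 6 genes were still called by hairpin label on average, and 0 for LPS. The replicate block moved the count of all genes called in LPS against Control to 311, beside 475 without it, in PINT shRNA1+LPS against PINT shRNA1 to 17, beside 32, and in the interaction to 14, beside 22. The count for LPS against Control was 127 with only the groups compared, 264 with weights per group, 295 without the second Control library and 288 without the third LPS library. For PINT shRNA1+LPS against PINT shRNA1 it was 65 with a common median or weights per group, 57 with quantile normalization, 18 with no trend, and 19 to 21 without the first or second library of either group. With a common median the higher share of calls in LPS against Control was 78.5% rather than 57.1%, and by hairpin label 48.3% rather than 60.4% in PINT shRNA1+LPS against LPS and 51.1% rather than 62.1% in PINT shRNA1 against Control. FPKM gives no counting error, so what depth limits cannot be stated.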
